A study of Mus musculus with 8 samples.

Results

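miR-132 and miR-212 are a pair of microRNAs made from neighbouring hairpins on mouse chromosome 11. They were chosen by name, as the features called mmu-miR-132 and mmu-miR-212, and both of these 2 members were found among the 567 mouse miRNAs of the array and detected on all 8 arrays. The samples were dendritic cells grown from bone marrow of C57BL/6 mice, an inbred laboratory strain with no engineered allele in the labels. In both groups marrow was cultured with murine GM-CSF at 40 ng/ml, and non-adherent cells were taken on day 9. In the CpG group, 4 samples were then exposed overnight to ODN1826, used at 10 µM, a class B CpG oligonucleotide. It is a short DNA with unmethylated CG pairs that is sensed by the receptor TLR9. In the untreated group, 4 samples went without it, in medium in one label and in PBS in another, and no sample had a control oligonucleotide. The comparison asks which miRNAs differ after stimulation, and no sorting of the cultured cells is described. Replicates carry a number only, shared by a CpG and an untreated sample, and no label ties replicates to different mice or dishes. A p-value here therefore measures the scatter among these particular samples, part of which may be technical.

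microRNAs are short RNAs that pair with messenger RNAs, chiefly through a stretch near their 5′ end called the seed, and lower the output of those messengers. In neurons, transcription of the miR-132 and miR-212 cluster is driven by the cAMP response element binding protein CREB and rises with neuronal activity. In immune cells, miR-132 has been described as a miRNA induced by lipopolysaccharide in human monocytic cells, beside miR-146a and miR-155, and as a regulator of acetylcholinesterase in mouse macrophages. Since both mature strands come from hairpins that are transcribed together, their levels are usually considered side by side.

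The mature sequences are shown first because they give the bases at which the members differ. Both members matched the RefSeq miRNA table (GRCm38.p6, plus strand), at chr11:75173723-75173744 for miR-132-3p and chr11:75173443-75173464 for miR-212-3p. Capitals mark the seed, bases 2 to 8 counted from the 5′ end.
miR-132-3p: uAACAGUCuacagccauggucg
miR-212-3p: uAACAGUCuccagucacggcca
The seeds were identical, and these were the only 2 of the 1679 mature mouse miRNAs in the table with that seed. Over their length of 22 bases the strands shared 17 and differed at 5, as A10C, C14U, U17C, U20C and G22A, with the miR-132 base first, the position from the 5′ end, then the miR-212 base. No difference lay in the seed.

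The hairpins show how close the strands lie to each other in the genome. Capitals mark the 3p arm in each, and 203 bases lie between the hairpins, with Mir212 upstream of Mir132.
Mir212, chr11:75173388-75173478: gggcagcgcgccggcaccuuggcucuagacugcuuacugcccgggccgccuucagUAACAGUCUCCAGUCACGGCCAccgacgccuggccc
Mir132, chr11:75173682-75173747: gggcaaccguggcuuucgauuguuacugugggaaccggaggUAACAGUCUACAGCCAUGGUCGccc
In the same assembly's gene table the neighbours of the pair were Hic1, which encodes a transcriptional repressor, and Ovca2.

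Each member was read by 2 probes, which target overlapping spans of different length. By the array's annotation (mm9), the miR-132 spans were chromosome 11, 74987231 to 74987246 (16 bases) and 74987232 to 74987246 (15 bases). The miR-212 spans were 74986953 to 74986966 (14 bases) and 74986954 to 74986966 (13 bases). The spans of the members end 280 bases apart, as do the 3′ ends of the 3p strands in RefSeq, where the 5p ends are 282 apart. Placed by that distance, with no conversion between builds, each span covers the last bases of its 3p strand, in capitals here.
miR-132, 16-base probe: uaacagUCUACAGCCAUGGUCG
miR-132, 15-base probe: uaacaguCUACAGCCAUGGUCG
miR-212, 14-base probe: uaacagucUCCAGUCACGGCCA
miR-212, 13-base probe: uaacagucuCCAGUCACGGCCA
All 5 differing bases lie under every one of these stretches, while most or all of the shared seed lies outside them. Whether one member's RNA binds the other's probes was not tested.

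The signals of both members were dim, so the reading over background is given before any comparison. Each probe had 10 spots per array, 80 in all. Every spot of the 16-base probe of miR-132 and of the 14-base probe of miR-212 was well above background, as were 78 of 80 spots of the 13-base probe. The 15-base probe of miR-132 was well above background in 25 of 40 spots on CpG arrays and in 18 of 40 on untreated arrays, with 0 of 10 on untreated replicate 4. No spot of either member was saturated. Across arrays, the 75th percentile of the miRNA signal, used for scaling, was 157 to 280.5 intensity units with CpG and 101 to 144 in untreated samples, so that CpG arrays were brighter by 0.80 on the log2 scale (exact two-sided permutation p = 0.0286, the smallest that 4 against 4 arrays allow). Myeloid miRNAs were measured on all arrays (3 of 3 listed, miR-223 among them), with a summed scaled signal of 14.3 to 17.7 with CpG and 19.3 to 22.6 in untreated samples. Lymphoid markers were detected for 3 of 4, with a sum of 5.24 to 7.43 with CpG and 7.67 to 9.35 in untreated samples, and miR-150 among them was not detected. On the scaled signal, 26.9% of all tested miRNAs did not overlap between groups. The median scaled log2 difference was -0.20 for tested myeloid and -0.24 for tested lymphoid miRNAs, against -0.19 over all tested miRNAs. Without scaling these medians were 0.60, 0.56 and 0.60, so that their direction depends on the scaling. The myeloid miRNAs differed among themselves on the scaled signal. There miR-223 was called lower (-0.60, limma adjusted p = 0.028), as 6.6% of all tested miRNAs were, and miR-142-3p (-0.20) and miR-142-5p (-0.021) were not called. The unscaled difference of miR-223 was 0.20 and did not pass (limma adjusted p = 0.47). Epithelial markers were dim, with 3 of 4 detected. The part of these cell types in the results was not tested. The 2 erythroid, the 2 endothelial and the 3 stromal markers on the array were detected on 0 of 8 arrays.

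miR-212 did not pass the test between groups on the signal scaled to the 75th percentile. On the log2 scale, where 0 is the array's 75th percentile, its level was -2.04, -2.40, -2.37 and -2.33 on the CpG arrays of replicates 1 to 4 and -1.82, -2.19, -2.29 and -1.92 on the untreated arrays. The groups overlapped, with CpG replicate 1 above untreated replicates 2 and 3. Each CpG array lay below the untreated array of the same number, and no label says whether the numbers pair the samples. In such bulk RNA, fewer cells that carry a miRNA and less of it per cell cannot be told apart. The means were -2.29 ± 0.17 with CpG and -2.06 ± 0.22 in untreated samples (SD, n = 4 each). The log2 difference was -0.23, with SE 0.16 and a limma adjusted p of 0.27. As a fold this is 0.85, with a 95% interval of 0.67 to 1.09. The median difference of all 212 tested miRNAs was -0.19, and that of miR-212 lay at -0.035 from it.

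miR-132 did not pass the test either, with a wider interval. Its log2 level was -2.64, -3.63, -3.49 and -3.71 on the CpG arrays of replicates 1 to 4, and -2.24, -2.94, -3.27 and -3.79 on the untreated ones. The lowest level of all was that of untreated replicate 4 and the highest that of untreated replicate 1, so that the 4 CpG arrays lay within the untreated range. The means were -3.37 ± 0.49 with CpG and -3.06 ± 0.65 in untreated samples (SD, n = 4 each). The log2 difference was -0.31, with SE 0.34 and a limma adjusted p of 0.49. The fold was 0.81 with a 95% interval of 0.47 to 1.38. Relative to the median miRNA the difference was -0.11. Neither member was called, where 14.2% of all tested miRNAs were (30 of 212, 16 higher and 14 lower, at an adjusted p under 0.05). With the CpG arrays of replicates 2 and 4, the brightest, left out, miR-132 was at -0.0065 and miR-212 at -0.15.

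**Figure D1:**
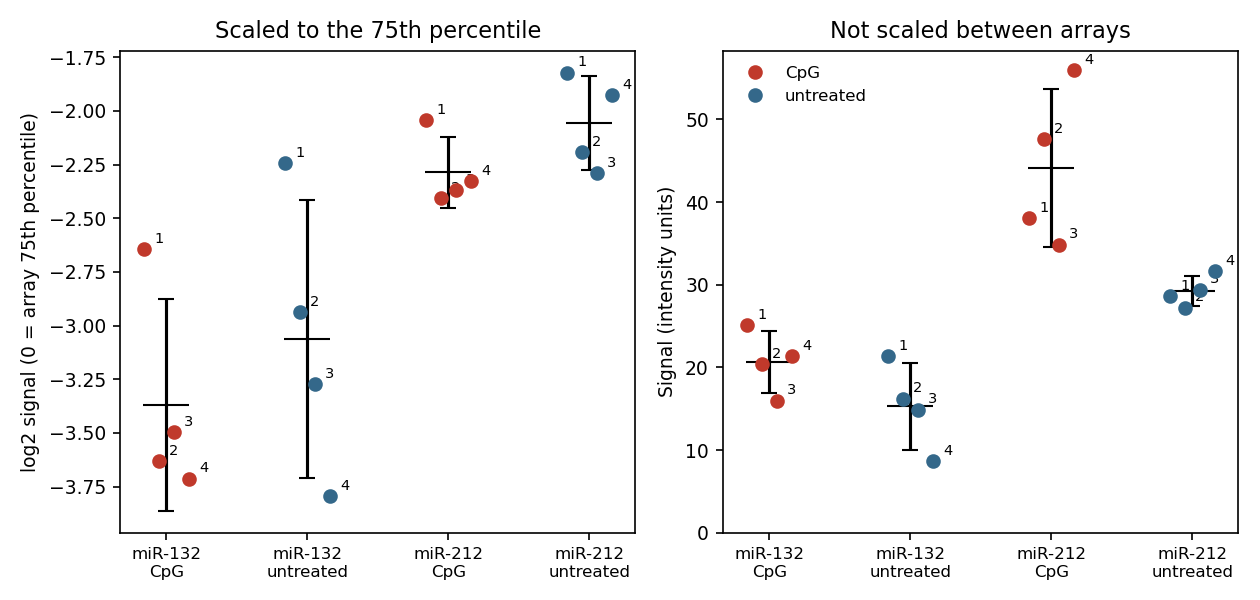
Signal of miR-132 and miR-212 on each array, as log2 of the scaled signal (left) and as unscaled intensity (right). Numbered points are arrays by replicate number, red for CpG and blue for untreated, and bars are mean ± SD. The groups overlap on the scaled axis, while unscaled miR-212 lies between 34.9 and 55.9 with CpG and between 27.2 and 31.7 in untreated samples. Without scaling, the groups do not overlap for 39.6% of tested miRNAs.

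Without scaling, both members read higher on CpG arrays, about as much as the typical miRNA did. For miR-212 the unscaled signal was 38.03, 47.6, 34.9 and 55.9 intensity units on CpG replicates 1 to 4, against 28.6, 27.2, 29.4 and 31.7 on untreated replicates 1 to 4. All 4 CpG arrays lay above all 4 untreated ones, as groups did without overlap for 39.6% of tested miRNAs on this scale. The unscaled log2 difference of miR-212 was 0.57 (SE 0.21, limma adjusted p = 0.051), which is -0.030 from the median of 0.60 over all tested miRNAs. For miR-132 the unscaled signal was 25.1, 20.4, 15.98 and 21.4 units on CpG replicates 1 to 4, against 21.4, 16.2, 14.9 and 8.67 on untreated replicates 1 to 4. These ranges overlapped, and the log2 difference was 0.49 (SE 0.29, limma adjusted p = 0.15), at -0.11 from the same median. Unscaled, 88 miRNAs were called higher and 0 lower (41.5%).

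The direction of both members depended on how arrays were made comparable. A setting that moves each array by 1 factor shifts all miRNAs nearly alike, so that a like distance to the median follows from its construction. Quantile normalization, which does not, put miR-132 at -0.32 and miR-212 at -0.33, where the median miRNA was at -0.11. The limma adjusted p there was 0.50 for miR-132 and 0.16 for miR-212. On the hur control features, bright spots that the array carries beside the miRNA probes, miR-132 was at 0.25 (limma adjusted p = 0.51) and miR-212 at 0.33 (limma adjusted p = 0.047), where the median of all miRNAs was at 0.36 and 34% were called (70 higher, or 33%, and 2 lower, or 0.943%). In the authors' deposited table, which holds unscaled total signals, a limma fit gave 0.49 for miR-132 and 0.57 for miR-212, with adjusted p = 0.16 and 0.048 and a median of 0.60 (87 called higher and 0 lower, 41%). With normexp background correction, an offset and 75th percentile scaling, both members were lower, by -0.49 and -0.37 (limma adjusted p = 0.0072 and 0.017). In that setting the median miRNA was at -0.36, and 132 miRNAs were called lower and 6 higher. miR-212 also turned slightly positive with median-of-ratios scaling (0.016) and with only probes well above background (0.020), and did not pass in either. The control features were 0.24 brighter on the log2 scale with CpG (exact permutation p = 0.14), and the part of array brightness in these differences was not tested further.

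**Figure D2:**
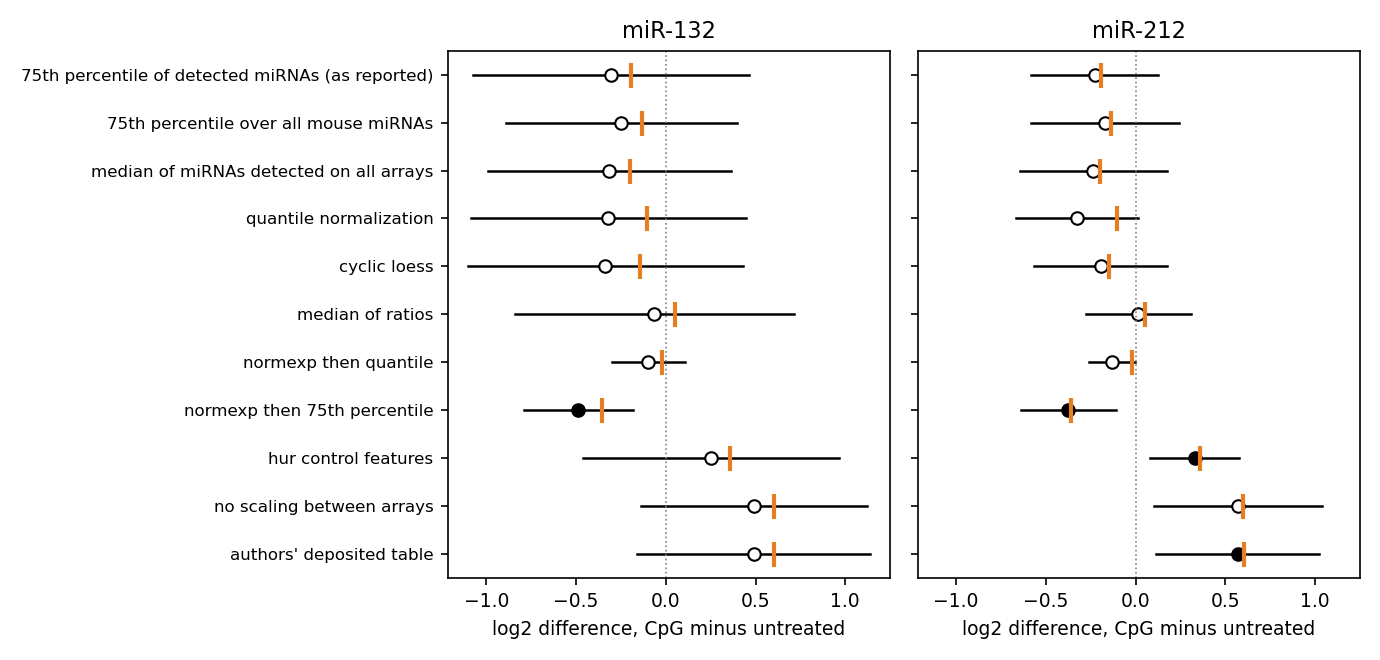
Log2 difference of miR-132 (left) and miR-212 (right), CpG minus untreated, under 11 ways of making the arrays comparable. Circles are the estimates, filled where the limma adjusted p is under 0.05, lines are 95% intervals, and orange ticks are the median over all tested miRNAs. The estimates run between -0.49 and 0.49 for miR-132 and between -0.37 and 0.57 for miR-212, and the median miRNA moves with the setting too.

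The probes of a member moved together from array to array. The 16-base probe of miR-132 read 36.5, 30.6, 24.1 and 31.3 intensity units on CpG replicates 1 to 4, against 31.4, 24.7, 22.5 and 12.9 on untreated replicates 1 to 4. Its 15-base probe read 13.6, 10.1, 7.82 and 11.5 units, on these CpG arrays, against 11.3, 7.73, 7.24 and 4.44 on the untreated ones. Both probes were thus lowest on untreated replicate 4 and highest on CpG replicate 1 before scaling. The 14-base probe of miR-212 read 55.2, 68.3, 51.4 and 81.9 units on CpG replicates 1 to 4, against 41.5, 39.8, 42.1 and 45.2 on untreated replicates 1 to 4. Its 13-base probe read 20.8, 26.9, 18.3 and 30.03 units on these CpG arrays, against 15.7, 14.7, 16.7 and 18.1 on the untreated ones. For each of the probes of miR-212, the 4 CpG arrays were above the 4 untreated ones without scaling. On that scale the groups did not overlap for 39.6% of tested miRNAs, and the probes of miR-212 target overlapping spans.

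The scaled log2 difference of each probe was close to that of its miRNA. It was -0.32 and -0.27 for the 16-base and 15-base probes of miR-132, and -0.22 and -0.26 for the 14-base and 13-base probes of miR-212. Within an array, the spots of a probe had a coefficient of variation with a median of 11.002% for the 16-base probe and 10.3% for the 14-base probe. It was 22.8% for the dimmer 15-base probe and 21.3% for the 13-base probe, up to 38.9% for the 13-base probe on untreated replicate 3.

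**Figure D3:**
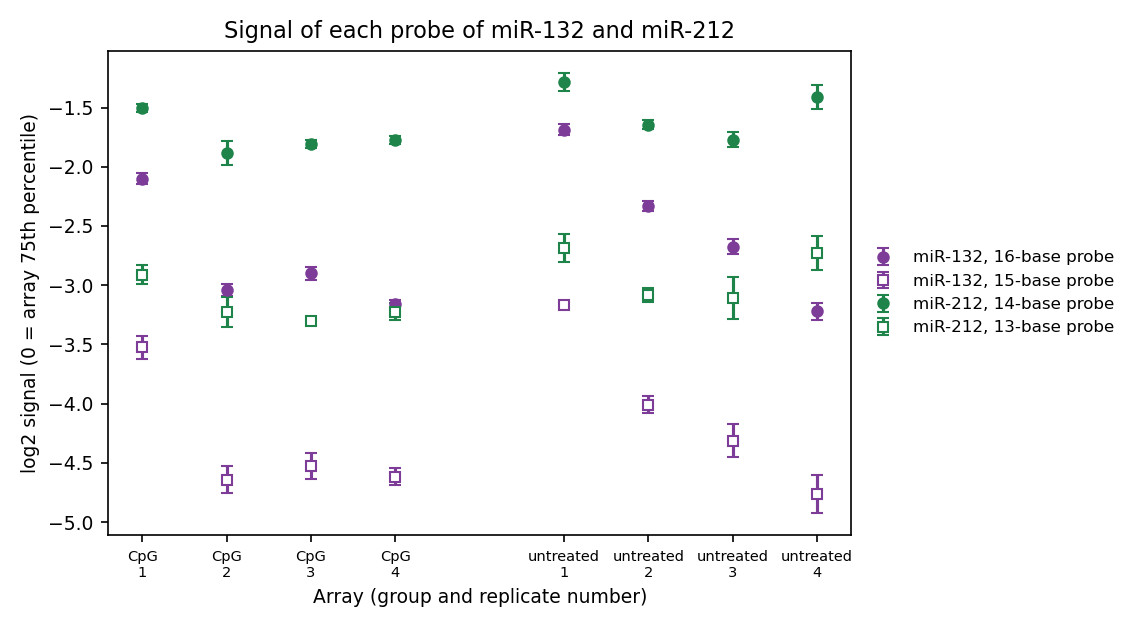
Log2 signal of each probe on each array, scaled to the array's 75th percentile. Purple marks miR-132 and green miR-212, filled circles the longer and open squares the shorter probe, and error bars are the standard error of the spots. The probes of a member keep a nearly constant distance. Heights of different probes cannot be read as relative amounts. Both miR-132 probes are lowest on untreated replicate 4 within the untreated group.

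Within each array, the ratio of miR-132 to miR-212 signal does not depend on scaling, and its difference between groups was smaller than its spread among replicates. The signals come from different probes, so that the level of this ratio is not a ratio of molecules, and only its change between arrays can be read. The miR-132 signal was 65.9%, 42.8%, 45.9% and 38.3% of that of miR-212 on CpG replicates 1 to 4, against 74.6%, 59.6%, 50.6% and 27.4% on untreated replicates 1 to 4. The CpG values lay inside the untreated range. The mean log2 ratio was -1.08 ± 0.34 with CpG and -1.01 ± 0.62 in untreated samples (SD, n = 4 each), a difference of -0.079 (exact two-sided permutation p = 0.86).

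The members did not keep a fixed ratio to each other across arrays of one group. It spanned 1.72-fold among CpG arrays and 2.73-fold among untreated arrays. The ratio of the probes of one member was steadier. The log2 ratio of the 16-base to the 15-base probe of miR-132 was 1.53 ± 0.10 with CpG and 1.58 ± 0.092 in untreated samples (SD, n = 4 each), and that of the 14-base to the 13-base probe of miR-212 was 1.42 ± 0.063 and 1.37 ± 0.055 (CpG, then untreated). Within an array, the standard error of the mean over spots was 2.40% to 4.90% of the signal for the 16-base probe of miR-132 and 2.27% to 11.2% for its 15-base probe. Feature Extraction's own error of the total miR-132 signal was 9.12% to 15.5%.

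The level of miR-132 varied more from array to array than that of miR-212. It spanned 2.10-fold among CpG arrays and 2.93-fold among untreated arrays, and the level of miR-212 spanned 1.29-fold and 1.38-fold (CpG, then untreated). The within-group SD of miR-132 was 0.58 on the log2 scale, against a median of 0.30 over the 212 tested miRNAs, of which 20 had a larger one. Among the 40 tested miRNAs of nearest mean level, 3 had a larger SD and the median was 0.32. The SD of miR-212 was 0.19, with 150 of 212 above it. These values describe the arrays, and whether the replicates differed in their cells, their culture or their RNA cannot be told apart.

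**Figure D4:**
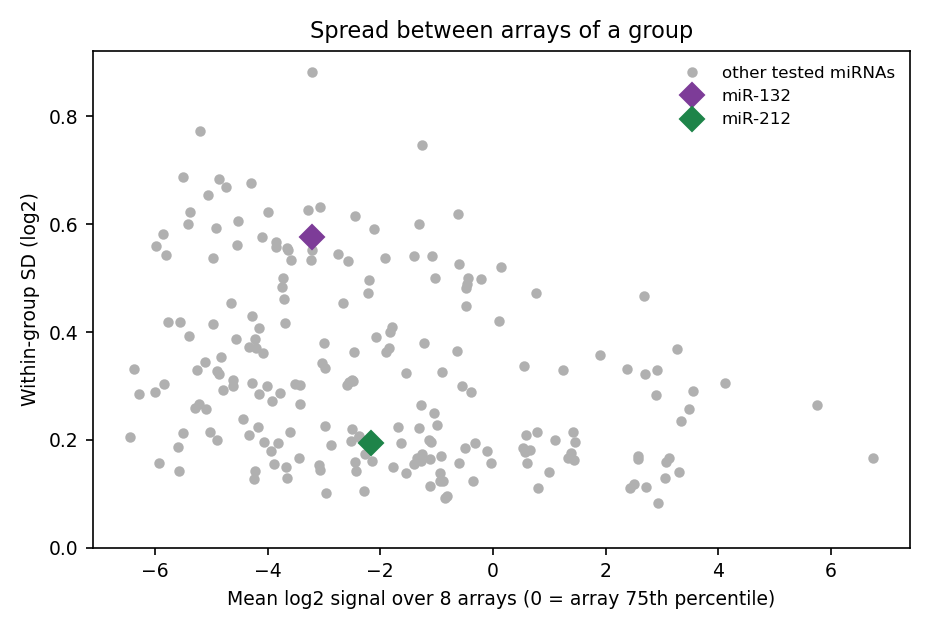
Within-group SD of log2 signal against mean log2 signal over the 8 arrays, for each of the 212 tested miRNAs. Diamonds mark miR-132, with an SD of 0.58, and miR-212, with an SD of 0.19, and grey points are the other miRNAs, whose median SD is 0.30 with the members included.

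miR-132 and miR-212 were also set against 3 other miRNAs described as responsive to Toll-like receptors, by within-array ratios that need no scaling. miR-155 is induced by such signalling, miR-146a limits it, and miR-21 is an abundant miRNA that it can also raise. Against miR-155, the log2 ratio of miR-132 was -6.57, -7.91, -7.88 and -8.00 on CpG replicates 1 to 4 and -4.83, -4.95, -6.08 and -5.58 on untreated replicates 1 to 4. The log2 ratio of miR-212 to miR-155 was -5.97, -6.69, -6.75 and -6.62 on the CpG arrays and -4.41, -4.20, -5.10 and -3.71 on the untreated arrays. In both, all 4 CpG arrays lay below all 4 untreated ones. miR-155 itself rose by 1.92 on the scaled log2 axis, where the median of all tested miRNAs was -0.19. A miRNA near that median gives a lower ratio to miR-155 too, so the fall is not particular to the members. The share of all tested miRNAs with such a ratio was not computed.

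The ratio to miR-155 thus differed by -2.23 for miR-132 and by -2.15 for miR-212 on the log2 scale, each at the smallest p that the exact permutation allows (p = 0.0286, adjusted p = 0.10 over the 7 ratios). After adjustment neither passed the threshold. The ratio to miR-146a was lower with CpG by -1.23 for miR-132 (exact permutation p = 0.11, adjusted p = 0.20) and by -1.15 for miR-212 (exact permutation p = 0.057, adjusted p = 0.13), with overlapping groups. The ratio to miR-21 differed by -0.20 for miR-132 and by -0.12 for miR-212 (exact permutation p = 0.63 and 0.20, adjusted p = 0.73 and 0.28). Its spread was small for miR-212, at -8.97 ± 0.14 with CpG and -8.85 ± 0.098 in untreated samples (SD, n = 4 each). With normexp background correction the ratios of both members to miR-155 and miR-21, and of miR-212 to miR-146a, passed after adjustment (exact permutation, adjusted p = 0.040 for each). That correction adds an offset of 50 to the signals, so that these ratios, unlike those above, are not free of array brightness. The part of the offset in them was not tested.

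**Figure D5:**
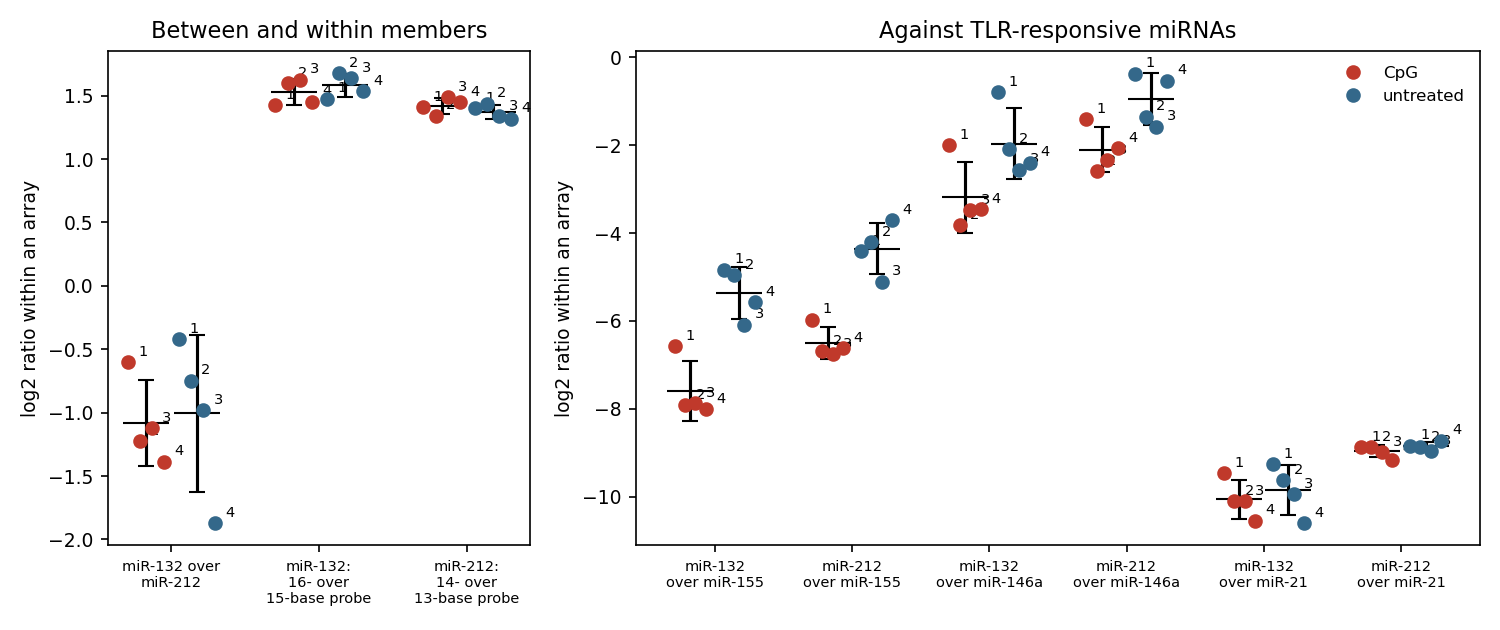
Log2 ratios of signals within each array, with CpG in red left of untreated in blue, replicate numbers beside the points and bars for mean ± SD. Left, miR-132 over miR-212 and the ratio of the probes of each member. Right, each member over miR-155, miR-146a and miR-21. The ratios to miR-155, which itself rose with CpG, do not overlap between groups. The ratio between the members spans -1.87 to -0.42 on untreated arrays, a range that contains all CpG values.

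Of the other miRNAs listed as responsive to Toll-like receptors, 9 of 10 could be tested, and 4 rose (miR-155, miR-146a, miR-147 and miR-222) and 0 fell, where 7.55% of all tested miRNAs were higher. The list was chosen with earlier results of these data known, so this count is a description and no independent test. The median log2 difference of the 9 was 0.42, against -0.19 for all tested miRNAs. The members, at -0.31 and -0.23, lay below all of these 9, as did the median of all tested miRNAs. Their SE was 0.34 and 0.16, and that of miR-9*, the lowest of the 9, was 0.29. The difference between the members and miR-9* was not tested. Of the 9, those that did not pass were miR-221 (0.42), miR-9 (-0.039), miR-146b (-0.072), miR-21 (-0.11) and miR-9* (-0.15). miR-155 rose by 1.92, miR-222 by 1.14, miR-147 by 0.97 and miR-146a by 0.92 on the log2 scale (limma adjusted p = 0.00096, 0.011, 0.023 and 0.035). Without scaling 7 of the 9 passed as higher, on the scale where 41.5% of all tested miRNAs did.

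The cluster is best known from neurons, so neuron-enriched or activity-regulated miRNAs were read beside it. Of 9 listed, 5 could be tested, 0 rose and 1 fell, where 6.6% of tested miRNAs were lower, and the median difference was -0.17. Among those tested, miR-9 and miR-9* also stand on the list responsive to Toll-like receptors, so the lists are not separate sets. The one that fell was miR-138, which controls dendritic spine size in rat neurons (log2 -1.40, limma adjusted p = 0.0284). Without scaling its difference was -0.60 and did not pass (limma adjusted p = 0.24). miR-124, the defining neuronal miRNA, was detected on 0 of 8 arrays, as were miR-134 and miR-137. miR-9, which neural progenitors carry and immune cells can induce, was at -2.46 ± 0.59 with CpG and -2.42 ± 0.64 in untreated samples (SD, n = 4 each), and was detected on all arrays, as was miR-128.

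The profiles of the members over the 8 arrays resembled those of different miRNAs. Likeness was measured as the root mean square distance between mean-centred log2 levels, as a description over arrays that share their scaling. The 5 nearest to miR-132 were miR-193b (0.20), miR-193 (0.23), miR-9* (0.25), miR-34a (0.26) and miR-301b (0.26), where the median over 211 miRNAs was 0.56. miR-193b read -3.13, -4.18, -3.65 and -4.20 on CpG replicates 1 to 4 and -2.76, -3.72, -3.41 and -4.20 on untreated replicates 1 to 4. Like miR-132, it was highest on replicate 1 of each group and low on untreated replicate 4. The 5 nearest to miR-212 were miR-181b (0.096), miR-148b (0.098), miR-652 (0.10), miR-19b (0.10) and miR-130b (0.11), with a median of 0.30 over 211. The distance between miR-132 and miR-212 was 0.435, which placed miR-212 at rank 47 of 211 from miR-132, and miR-132 at rank 136 from miR-212. None of these 10 neighbours passed the test, where 14.2% of all tested miRNAs did, and their log2 differences were between -0.37 and -0.07. They were chosen by likeness over both groups, so that differences near those of the members follow from the choice.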

How the data were processed

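RNA from each sample, labelled with Cy3, was read on 1 of the 8 arrays of a single Agilent mouse miRNA slide in 1 colour. The deposited scanner output comes from Feature Extraction (version 9.5.3.1 in the file headers). It gives each spot an intensity from which a fitted background surface was subtracted, and the arrays are not scaled to each other. The deposited detection and quality flags, computed by Feature Extraction before deposit, lie in the range of a fraction and hold only 0 and 1. Separate flags mark detection of a miRNA, and outliers, saturation and signal well above background of a spot. A deposited series table holds intensities of 256 mouse miRNAs, of which 2009 of 2048 values equalled the total gene signal within 0.1% and 39 stood at 0.01. The submitters' processing notes name limma and no version of it.

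Spots without outlier flags were averaged per probe, and probes per miRNA. Scaling used the 75th percentile of each array, over 177 miRNAs detected on all arrays. Scaled signals were floored at 0.0107 and put on the log2 scale. The 212 miRNAs detected on at least 3 arrays of a group were tested in R 4.3.3 by a limma 3.58.1 linear model with eBayes, two-sided, with Benjamini-Hochberg adjustment. Within-array ratios used unscaled signals and exact two-sided permutation of the 70 arrangements, with adjustment over 7 ratios. On simulated data over the 212 miRNAs, this comparison's fit found 78.95% of changes of 1 and 98.4% of changes of 2 on the log2 scale, with 4.61% of calls false. The simulated noise was independent between miRNAs and arrays, without a scaling step, and the shares are averages over miRNAs. The share for miR-132, whose SD of 0.58 is above the median of 0.30, was not computed. The named miRNAs are both members, those of the lists that are compared and the 5 nearest profiles of each. The array's miR-124 and miR-128 stand for the listed miR-124a, miR-128a and miR-128b. Members, lists and tests were chosen with earlier results of these data known. Figures were drawn with Python 3.11.15 and matplotlib 3.10.9. Precision is limited by the number of arrays.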

Additional observations from a re-analysis of the deposited data

Results flagged for a closer look

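A single array stood far from its group in 2 of the 30 sets of 4 values examined. By chance about 1 in 20 would, and many of these groups share the same signals. Both stood on CpG replicate 1. The log2 ratio of miR-132 to miR-155 was -6.57 there, against a mean of -7.93 on the other CpG arrays. The 15-base probe of miR-132 read -3.52 on the scaled log2 axis, against a mean of -4.59 on the others, and its 16-base probe read -2.10 on that array.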

How the results depend on the processing

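Neither member passed the threshold in most alternatives (1 of 28 called miR-132, and 3 of 28 miR-212). The 15-base probe of miR-132 was well above background in 43 of 80 spots, which limits its precision. miR-132 turned positive without scaling (0.49), on the hur control features (0.25) and in the authors' deposited table (0.49), and passed with normexp and the 75th percentile (-0.49). miR-212 turned positive without scaling (0.57), in the authors' table (0.57), on the hur features (0.33), with median-of-ratios scaling (0.016) and with only probes well above background (0.020), and passed with normexp and the 75th percentile (-0.37). That setting adds an offset of 50, and 132 miRNAs were called lower in it. The part of the offset in these calls was not tested. For the within-array ratios, normexp passed at -2.50 (miR-132 over miR-155), -0.59 (miR-132 over miR-21), -2.39 (miR-212 over miR-155), -0.87 (miR-212 over miR-146a) and -0.47 (miR-212 over miR-21). With the same offset, these ratios are not free of array brightness. Leaving out CpG replicates 2 and 4, chosen after seeing the data, turned miR-132 over miR-212 to 0.14 and over miR-21 to 0.070. The cause of the changes between settings was not tested.

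Leaving out 1 array gave -0.55 to -0.035 for miR-132, its smallest size without untreated replicate 1, and -0.31 to -0.15 for miR-212. The ratio of miR-132 ran from -0.37 to 0.12 over miR-212, -2.57 to -2.05 over miR-155, -1.62 to -0.84 over miR-146a and -0.44 to 0.0018 over miR-21. The ratio of miR-212 ran from -2.40 to -1.93 over miR-155, -1.38 to -0.95 over miR-146a and -0.16 to -0.056 over miR-21. No member or ratio passed in these fits.

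With the replicate block, miR-132 and miR-212 stayed at -0.31 and -0.23 (limma adjusted p = 0.17 for both), and 16 miRNAs were called higher and 22 lower. Their SE was 0.16 and 0.11 there, against 0.34 and 0.16 without the block. Between same-numbered arrays 1 to 4, the scaled log2 difference of miR-212 was -0.22, -0.21, -0.079 and -0.40. That of miR-132 was -0.40, -0.69, -0.22 and 0.082. Deviations of same-numbered arrays correlated at 0.28, -0.26, 0.25 and 0.096 across miRNAs, which does not settle whether the numbers pair the samples. Same-numbered arrays also lay side by side in 1 row of the slide, and with the slide row as a block the limma adjusted p was 0.51 for miR-132 and 0.18 for miR-212. For the ratios, 4 pairs allow no p below 0.125. Counts of higher and lower calls, 16 and 14 as reported, moved to 16 and 7 with the 75th percentile of all miRNAs, 11 and 7 with the median, 9 and 10 with quantile normalization, 11 and 9 with cyclic loess, 17 and 5 with median of ratios, 7 and 5 with normexp and quantile, 14 and 34 with a higher floor, 2 and 1 with no filter, 16 and 28 with trend and robust, 13 and 25 with medians, 9 and 3 with probes well above background, and 3 and 1 without CpG replicates 2 and 4. With 1 CpG array left out, they were 39 and 29 (replicate 1), 8 and 3 (replicate 2) and 3 and 2 (replicate 3), and with 1 untreated array left out, 8 and 4 (replicate 1), 3 and 2 (replicate 2) and 10 and 7 (replicate 4).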
